A study of Mus musculus with 8 samples.

Results

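The MSC surface markers are 10 genes whose proteins stand on the cell membrane and are stained to define mesenchymal stem cells (MSCs): Cd44, Nt5e, Eng, Thy1, Itgb1, Alcam, Pdgfra, Pdgfrb, Cd9 and Mcam. They were taken as every probe whose annotated gene symbol is one of these, which gave 24 probes of 45281 on the array and 10 of 19057 named genes. Values came from 8 Illumina arrays of total RNA of C57BL/6J mice, all labelled as adult bone marrow mesenchymal stem cells by source. Of these, 2 hold undifferentiated MSCs and carry d0 and p4 in their titles. A further 3 hold differentiated cells, namely adipocytes at d7, osteocytes at d21 and chondrocytes at d28. The last 3 hold reprogrammed cells of the same lineages, marked p1, so that each differentiated or reprogrammed cell type rests on a single array. The labels name no allele, inducing medium or reprogramming agent, and do not say what d and p stand for or whether arrays share a culture or an animal.

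MSCs grow as adherent stroma of the marrow and give rise to fat, cartilage and bone. In human cultures they are identified by the ecto-enzyme CD73 (Nt5e), the TGF-beta co-receptor endoglin (CD105, Eng) and the small GPI-anchored glycoprotein CD90 (Thy1), together with the absence of blood cell proteins. The hyaluronan receptor CD44, integrin beta 1 (CD29, Itgb1), the cell adhesion molecules CD166 (Alcam) and CD146 (Mcam), both PDGF receptors (CD140a and CD140b) and the tetraspanin CD9 are used beside them, and mouse stroma varies more than human stroma in which of them it carries.

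Values are the authors' deposited log2 values, and a value of 6 is used as the level below which a probe is called dim. On the MSC arrays the label held for some members only. Cd44, Itgb1, Pdgfra and Cd9 had a probe at or above 6 on all 8 arrays, and Pdgfrb on 7. The other members did not reach it everywhere: Nt5e did on 6 arrays, Alcam on 2, Eng and Mcam on 1 each and Thy1 on none. On MSC d0 the members at the level were thus Cd44, Itgb1, Pdgfra, Pdgfrb and Cd9, and MSC p4 added Nt5e. Of 9 exclusion markers of blood cells with a probe, 2 or 3 reached 6 on each array, among them Cd14 and Ly6c1, while Ptprc, the pan-leukocyte protein CD45, lay between 0.77 and 3.69. Fewer cells carrying a transcript and less of it per cell cannot be told apart in such bulk RNA.

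**Figure D1:**
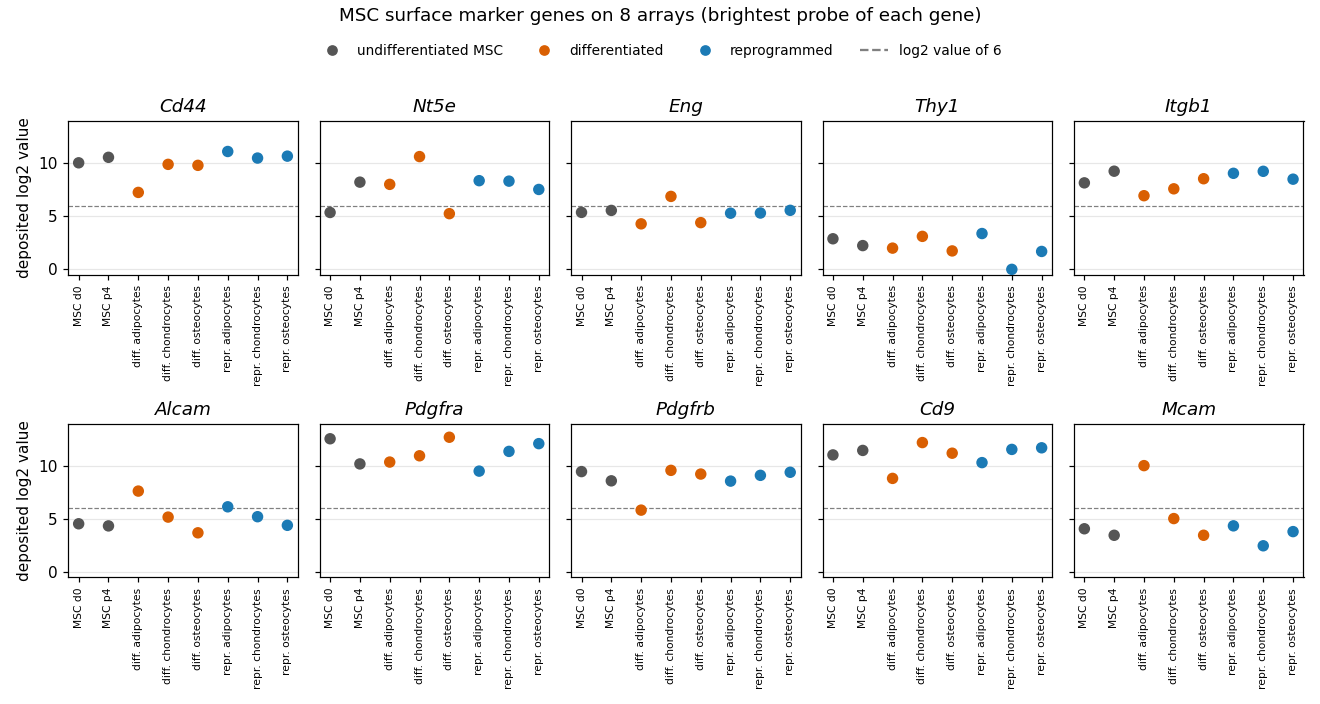
Deposited log2 values of the 10 genes on the 8 arrays, 1 point an array, for the probe with the highest mean of each gene; the dashed line marks 6 and colours mark the 3 states. Mcam stands at 10.04 on differentiated adipocytes and under 6 elsewhere, Nt5e is highest on differentiated chondrocytes at 10.65, and Thy1 stays at or under 3.38.

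Nt5e encodes CD73, which turns extracellular AMP into adenosine. Its brighter probe read 5.37 on MSC d0 and 8.24 on MSC p4. It read 8.03 on differentiated adipocytes, 10.65 on differentiated chondrocytes and 5.26 on differentiated osteocytes, and 8.38, 8.33 and 7.55 on reprogrammed adipocytes, chondrocytes and osteocytes. The chondrocyte array was the highest, MSC d0 and differentiated osteocytes were dim, and the other 5 arrays lay between 7.55 and 8.38. The second probe gave the same highest and lowest arrays, at 9.11 and 4.15, and followed the first at r = 0.98 over 8 arrays.

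On a scale of log2 with an offset of 16, used for every difference given here, the chondrocyte array was above the MSC mean in Nt5e by 3.59, and by 2.35 against MSC p4 alone. MSC p4 was itself at least 3.97-fold above MSC d0, which was dim. The gap between arrays that share the MSC label was thus of the same order as the differences of most other arrays from them.

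Eng, the endoglin gene, passed 6 on differentiated chondrocytes alone, at 6.89. It read 5.38 and 5.57 on MSC d0 and p4, 4.30 and 4.41 on differentiated adipocytes and osteocytes, and 5.30, 5.32 and 5.58 on reprogrammed adipocytes, chondrocytes and osteocytes. The chondrocyte array stood at least 1.68-fold above the MSC arrays, a bound because the MSC values are dim. Thy1 had 2 probes, and neither went above 3.51 on any array. At this level nothing can be said of its differences, and the values do not show that the transcript is absent.

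Macrophage and monocyte markers were among those that stood higher on the chondrocyte array, where Nt5e and Eng were highest. Of 14 such genes with a probe, 6 reached 6 there (Cd14, Lyz2, Mpeg1, C1qc, Laptm5 and Ctss), against 1 or 2 on the other arrays, and their summed linear level was 1194 there and 281 to 517 on the others. Ptprc stayed at 3.39 and Itgam at 3.64 on it. Endothelial cells also carry endoglin. Of 10 endothelial markers 2 reached 6 on that array, as on every array, Ly6c1 at 10.57 and Egfl7 at 7.24. The rest were dim there, among them Pecam1 (4.24), Cdh5 (4.05) and Emcn (3.91). Osteoblast and osteocyte markers stood higher on that array too, with a summed level of 18314 there and 235 to 1356 on the others. The part of any of these cells in the Nt5e and Eng values was not tested.

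Cd44, the receptor for hyaluronan, had 9 probes, of which 3 were bright and 6 stayed under 6 on every array. Its brightest probe read 10.06 on MSC d0 and 10.58 on MSC p4. It read 7.27 on differentiated adipocytes, 9.92 on differentiated chondrocytes and 9.83 on differentiated osteocytes, and 11.13, 10.51 and 10.69 on reprogrammed adipocytes, chondrocytes and osteocytes. Every differentiated array lay below both MSC arrays and every reprogrammed array lay above every differentiated one, but the adipocyte array stood apart from the other differentiated arrays by far more than those lay from MSCs. The other bright probes had the same lowest array, at 6.75 and 5.62, and the 3 bright probes correlated with each other at r = 0.94 to 0.98 over 8 arrays. The 6 dim probes had their highest values between 4.18 and 5.19 and are not read further.

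Itgb1 pairs with many alpha chains to form receptors for collagen, laminin and fibronectin. Its brighter probe read 8.17 and 9.27 on MSC d0 and p4. It read 6.96, 7.61 and 8.56 on differentiated adipocytes, chondrocytes and osteocytes, and 9.07, 9.26 and 8.52 on the reprogrammed cells of these lineages. The second probe had a narrower range, 6.74 to 7.99, and put the chondrocyte array highest where the first put it second lowest. Both put differentiated adipocytes lowest. Their correlation over 8 arrays was r = 0.47, so that a difference of Itgb1 on the chondrocyte array depends on the probe.

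Alcam and Mcam, immunoglobulin-type adhesion molecules, were highest on differentiated adipocytes, where Cd44 was lowest. Alcam read 7.64 on differentiated adipocytes and 6.15 on reprogrammed adipocytes. It was dim on MSC d0 and p4 (4.55 and 4.35), on differentiated chondrocytes and osteocytes (5.18 and 3.70) and on reprogrammed chondrocytes and osteocytes (5.22 and 4.41). Both arrays of the adipocyte lineage were therefore the highest in Alcam, the reprogrammed one at least 1.09-fold and the differentiated one at least 2.69-fold above MSCs.

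Mcam was bright on a single array. Its brightest probe read 10.04 on differentiated adipocytes, 4.08 and 3.47 on MSC d0 and p4, 5.04 and 3.47 on differentiated chondrocytes and osteocytes, and 4.36, 2.47 and 3.81 on reprogrammed adipocytes, chondrocytes and osteocytes. The other probes read 8.28 and 8.53 on differentiated adipocytes and at most 4.64 and 5.53 on any other array. Against MSCs the 3 probes were higher by at least 13.4-fold, 4.10-fold and 4.82-fold, and the same bounds held against reprogrammed adipocytes. Mcam is also made by endothelial cells and pericytes. On this array 2 of 10 endothelial markers reached 6 as on every array, Egfl7 at 8.56 and Ly6c1 at 6.66. The rest, among them Pecam1 (2.57), Cdh5 (2.53) and Kdr (4.69), were dim. Of 9 pericyte and smooth muscle markers 4 reached 6, against 3 or 4 on the others. They were Acta2 (9.85), Notch3 (7.54), Myl9 (6.64) and Des (6.49), and Des reached 6 on this array alone. The rest, among them Rgs5 (2.56), were dim. The summed level of the 9 was 1378 against 6083 to 29298 on the others, where Acta2, the highest of them, read 12.20 to 14.65. The part of such cells in the Mcam values was not tested.

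The promoters of Mcam and Cd44, which lay farthest apart on the adipocyte array, and of Nt5e, which did so on the chondrocyte array, are shown from RefSeq (build GRCm38.p6, from 250 bases before to 50 after the annotated start, 5′ to 3′ on the gene's strand). Capitals mark the motif GGGCGG, a GC box, on either strand, and neighbouring matches can overlap. Mcam lies at chr9:44134408-44134707 (plus strand), Cd44 at chr2:102901616-102901915 (minus strand) and Nt5e at chr9:88327359-88327658 (plus strand).
Mcam: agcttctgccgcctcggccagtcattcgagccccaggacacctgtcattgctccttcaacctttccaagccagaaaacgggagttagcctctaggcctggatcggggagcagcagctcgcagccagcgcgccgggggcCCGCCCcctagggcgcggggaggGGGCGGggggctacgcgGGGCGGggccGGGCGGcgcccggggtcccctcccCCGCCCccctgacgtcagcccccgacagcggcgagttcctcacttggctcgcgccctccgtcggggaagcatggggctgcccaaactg
Cd44: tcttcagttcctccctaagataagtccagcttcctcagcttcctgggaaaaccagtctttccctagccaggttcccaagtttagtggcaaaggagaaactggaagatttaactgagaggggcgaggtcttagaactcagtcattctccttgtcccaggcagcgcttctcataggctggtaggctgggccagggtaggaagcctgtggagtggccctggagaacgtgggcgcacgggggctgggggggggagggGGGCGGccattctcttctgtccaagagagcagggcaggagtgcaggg
Nt5e: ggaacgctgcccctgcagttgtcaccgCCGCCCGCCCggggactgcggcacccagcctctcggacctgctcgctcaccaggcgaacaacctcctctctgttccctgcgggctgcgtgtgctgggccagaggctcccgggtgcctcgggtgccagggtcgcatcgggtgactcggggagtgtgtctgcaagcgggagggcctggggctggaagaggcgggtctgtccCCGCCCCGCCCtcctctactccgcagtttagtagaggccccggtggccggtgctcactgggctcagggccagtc
Mcam held 5 matches and 72.7% G or C, Nt5e 4 matches and 71.0%, and Cd44 1 match and 58.0%, against a median of 52.7% over 32817 promoters. A promoter was found for 8 members, and 6 of them held a GC box (Cd44, Nt5e, Itgb1, Alcam, Cd9 and Mcam), as did 35.6% of all promoters. The nuclear receptor half-site AGGTCA occurred in 0 of the 8 and in 16.3% of all. The C/EBP-type motif TTGCNNAA occurred in 1, Pdgfra, and in 10.8% of all, and TATAAA in 0 and in 13.6% of all. These are letter matches in this window and say nothing of binding.

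Pdgfra and Pdgfrb encode the receptors through which PDGF drives the growth and migration of mesenchymal cells. The bright probe of Pdgfra read 12.58 on MSC d0 and 10.21 on MSC p4. It read 12.73 on differentiated osteocytes, 10.97 on differentiated chondrocytes and 10.38 on differentiated adipocytes, and 12.12, 11.39 and 9.53 on reprogrammed osteocytes, chondrocytes and adipocytes. The order osteocyte, chondrocyte, adipocyte was the same among differentiated and among reprogrammed arrays, with 1 array behind each value. The MSC arrays lay near the opposite ends of this range. A second Pdgfra probe stayed at or under 4.51.

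Pdgfrb read 9.48 and 8.61 on MSC d0 and p4, 9.60 and 9.25 on differentiated chondrocytes and osteocytes, and 9.42, 9.13 and 8.58 on reprogrammed osteocytes, chondrocytes and adipocytes. On differentiated adipocytes it was dim, at 5.84, which is at least 6.81-fold below the MSC mean and at least 4.99-fold below reprogrammed adipocytes. All arrays but this one lay between 8.58 and 9.60.

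Cd9, a tetraspanin that gathers integrins and other membrane proteins, read 11.06 and 11.48 on MSC d0 and p4. It was lowest on differentiated adipocytes at 8.84 and next lowest on reprogrammed adipocytes at 10.33. Differentiated chondrocytes stood highest at 12.22, with differentiated osteocytes at 11.22 and reprogrammed chondrocytes and osteocytes at 11.58 and 11.73. Both adipocyte-lineage arrays were thus the lowest in Cd9 and the highest in Alcam.

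**Figure D2:**
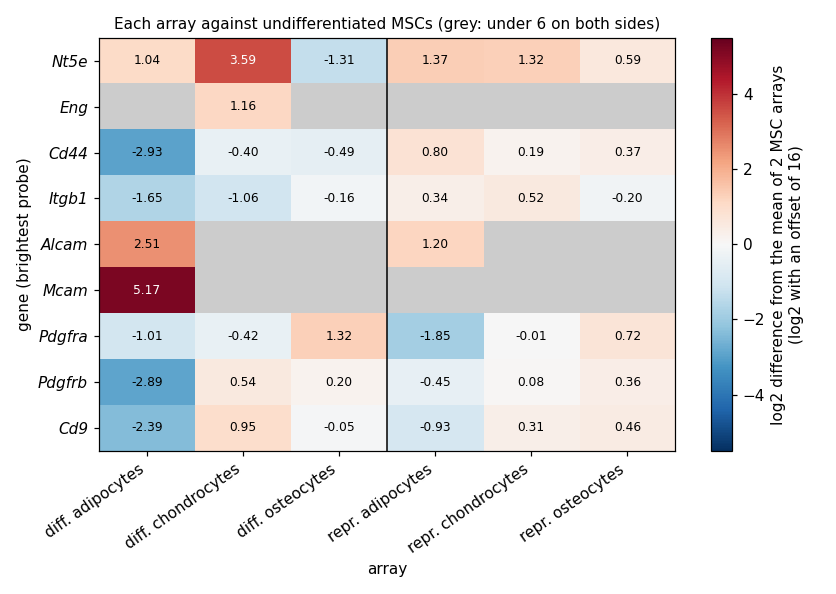
Log2 differences (offset of 16) of each differentiated and reprogrammed array from the mean of the 2 MSC arrays, for the brightest probe of 9 members; grey cells are under 6 on both sides. The differentiated adipocyte column runs from -2.93 for Cd44 to 5.17 for Mcam, which is dim on the MSC arrays and so at least 13.4-fold higher, and the reprogrammed columns from -1.85 to 1.37.

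Counted by size, with a log2 difference of at least 1 from both MSC arrays and the brighter side at 6, differentiated adipocytes differed in more member probes than any other array. Over the 15 member probes (9 genes) that reached 6 on some array, 4 were higher (Alcam and 3 of Mcam), against 9.35% of 15568 probes in all. A further 6 were lower (3 of Cd44 and 1 each of Itgb1, Pdgfrb and Cd9), against 9.29%. The 3 Mcam probes reached 6 on this array alone and entered the 15 only through it, so their place in the count adds no support. Alcam reached 6 only on the 2 adipocyte arrays and entered this count and those below through them, so its place adds none either. Eng likewise entered this count and those below only through differentiated chondrocytes. Probes of the same gene are also not separate observations. No test applies to a single array, and these members stood in a comparison in which many other probes differed too. Adipocyte markers showed the label to hold, with 8 of 9 at 6 on that array (Adipoq, Cidec, Plin1, Fabp4, Lpl, Lipe, Pparg and Cebpa) and 2 to 4 on the others.

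Differentiated chondrocytes were higher in 3 member probes (2 of Nt5e and 1 of Eng; 5.77% of all probes) and lower in 0 (3.52%). Differentiated osteocytes differed in 0 member probes in either direction, beside 3.79% of all probes higher and 2.62% lower. Their label had weak support among 9 osteoblast and osteocyte markers, of which 3 reached 6 on that array and 5 on the chondrocyte array, where their summed level was 18314 against 917. Of 10 chondrocyte markers, 4 reached 6 on the chondrocyte array and 1 or 2 elsewhere, and their summed level was 2640 there and 143 to 2136 elsewhere. Col10a1 (7.51) and Hapln1 (6.39) reached 6 there alone. Col2a1 read 9.15 there, below the 9.74 to 10.41 of the reprogrammed arrays, and Sox9 10.73 beside 10.57 on MSC d0. Acan was dim at 5.66, so that support for this label was partial too. Among the reprogrammed arrays, 1 member probe differed from both MSC arrays, that of Alcam in adipocytes (higher, beside 0.135% of all probes higher and 0.694% lower). Reprogrammed chondrocytes and osteocytes had 0 (0.0964% and 1.21% of all probes higher, 0.0193% and 0.34% lower). Alcam was dim on both MSC arrays, so its difference is bounded only at 1.09-fold or more, and it entered the count only through the adipocyte arrays.

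Between differentiated cell types, adipocytes stood apart from both others in Cd44, Pdgfrb and Cd9 (lower) and in Alcam and Mcam (higher). Against chondrocytes 4 member probes were higher (14.4% of all probes) and 9 lower (15.2%), and against osteocytes 6 were higher (12.7%) and 7 lower (13.4%). Chondrocytes were higher than osteocytes in 3 member probes (7.39%), Nt5e by at least 20.3-fold and 7.11-fold on its probes and Eng by at least 1.68-fold, and lower in 1 (7.23%), Pdgfra at -1.74. Nt5e, of which adipocytes had less than chondrocytes (-2.55) and at least 3.46-fold more than osteocytes, was thus ordered chondrocyte, adipocyte, osteocyte.

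Each reprogrammed array was then set against the differentiated array of its lineage. In the adipocyte lineage 6 member probes were higher after reprogramming (16% of all probes) and 4 lower (15.7%). They are the same 10 probes that set differentiated adipocytes apart from MSCs. Cd44 was higher by 3.73 and 3.33 on its brighter probes and at least 11-fold on the third, Pdgfrb at least 4.99-fold, Itgb1 by 1.98 on its brighter probe and Cd9 by 1.46, while Alcam was lower by 1.30. This overlap follows in part from the shared differentiated adipocyte array, on which both comparisons rest.

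In the chondrocyte lineage 2 member probes were higher (9.55% of all probes), 1 of Cd44 by 1.19 and the brighter of Itgb1 by 1.58, where the second Itgb1 probe had -0.09. A further 3 were lower (9%): Nt5e with differences of -2.26 and -2.18, and Eng by at least 1.68-fold. In the osteocyte lineage 3 were higher (9.72%), Cd44 by 1.16 and 1.26 on 2 of its probes and Nt5e at least 2.54-fold on its brighter probe, and 0 were lower (8.83%). Cd44 was the member with a probe past this size, and upward, in all 3 lineages. Nt5e went down in the chondrocyte lineage and up in the osteocyte lineage and ended at 8.33 and 7.55 on the reprogrammed arrays, from 10.65 and 5.26.

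**Figure D3:**
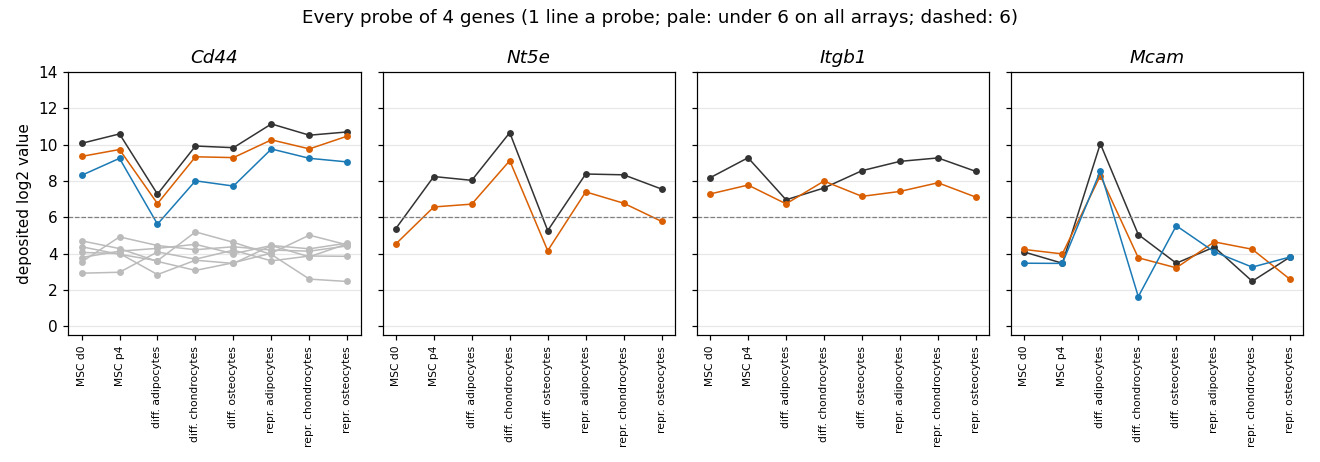
Deposited log2 values of every probe of Cd44, Nt5e, Itgb1 and Mcam on the 8 arrays, 1 line a probe; pale lines are probes under 6 on all arrays. The 3 bright Cd44 probes dip together on differentiated adipocytes, the Nt5e and Mcam probes run in parallel where they exceed 6, and the Itgb1 probes part on differentiated chondrocytes, at 7.61 and 7.99.

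Differences between the states were tested with limma over all 8 arrays and 14082 probes that reached 6 on at least 2 arrays. Of the 24 member probes 11 passed this filter, from 7 genes, and Eng, Thy1 and Mcam are not among them. Alcam passed it only through the 2 adipocyte arrays. In reprogrammed against differentiated cells, the comparison that the series title points to, 0 of the 11 passed at an adjusted p under 0.05, where 0.824% of all probes did (0.412% in each direction). Without adjustment, 4 had p under 0.05 and were higher (13.6% of all probes) and 0 lower (9.69%). The lowest adjusted p belonged to the third Cd44 probe, with a difference of 2.07 (SE 0.55, limma adjusted p = 0.0895, 95% interval 0.81 to 3.34; 3 arrays against 3). The other bright Cd44 probes differed by 1.73 (SE 0.64, limma adjusted p = 0.16) and 1.64 (SE 0.62, limma adjusted p = 0.166), and the brighter Itgb1 probe by 1.17 (SE 0.45, limma adjusted p = 0.169, 95% interval 0.14 to 2.20).

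The brightest Cd44 probe averaged 10.32 ± 0.37 (SD, n = 2) on MSC, 9.0 ± 1.5 (SD, n = 3) on differentiated and 10.78 ± 0.32 (SD, n = 3) on reprogrammed arrays as deposited. The groups did not overlap between reprogrammed and differentiated arrays on the 3 bright Cd44 probes, which were 3 of 11 member probes, beside 17.1% of all probes higher without overlap and 13.5% lower. Without both adipocyte arrays, an alternative chosen after the values were seen, the Cd44 differences were 0.72, 0.80 and 1.23. With the title letter (d or p) as a block they were 1.21, 1.27 and 1.17 (limma adjusted p = 0.9996 for each). The brighter Itgb1 probe stood at 0.77 without both adipocyte arrays (limma adjusted p = 0.471) and at 0.11 with the block (limma adjusted p = 0.9996), against 1.17 over all 8 arrays.

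For the remaining members the intervals were wide. Between reprogrammed and differentiated arrays the 95% interval ran from -2.66 to 2.64 for Nt5e, from -2.41 to 1.72 for Pdgfra, from -1.20 to 2.63 for Pdgfrb, from -1.39 to 2.27 for Cd9 and from -1.88 to 1.27 for Alcam. The second Itgb1 probe had 0.16, with -0.65 to 0.97. The median of the 11 member differences was 0.44, and that of all probes tested 0.04.

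In differentiated against MSC arrays, 0 of 11 member probes passed (0.0568% of all), with limma adjusted p from 0.439 to 0.994. At an unadjusted p under 0.05, 1 was lower (6.77% of all) and 0 higher (4.04%). That was the third Cd44 probe at -1.51 (SE 0.61, limma adjusted p = 0.439), beside -1.27 and -1.02 on the other bright probes. The 3 of them lay below both MSC arrays without overlap, as did 14.1% of all probes. On the second probe the margin was narrow, with differentiated chondrocytes at 9.32 beside 9.34 on MSC d0. Differences of Nt5e were 1.10 and 1.01, of Alcam 0.86, of Itgb1 -0.95 and -0.21, of Pdgfrb -0.72, of Cd9 -0.50 and of Pdgfra -0.03.

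In reprogrammed against MSC arrays 0 of 11 passed, as did 0% of all probes, and 0 had an unadjusted p under 0.05 (0.156% of all higher, 0.142% lower). The second Cd44 probe lay above both MSC arrays on all 3 reprogrammed arrays, 1 of 11 member probes higher without overlap and 0 lower, beside 5.71% and 7.09% of all probes. Its narrowest margin was reprogrammed chondrocytes at 9.76 beside MSC p4 at 9.72. The widest interval was that of Nt5e, -1.87 to 4.06, and the narrowest that of the second Itgb1 probe, -0.95 to 0.86. The intervals of Cd44 were -1.19 to 2.09, -0.97 to 2.20 and -0.86 to 1.97. Both contrasts with MSC use the same 2 MSC arrays, and MSC p4 was at least 3.97-fold above MSC d0 in Nt5e and lower by 2.36 in Pdgfra.

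**Figure D4:**
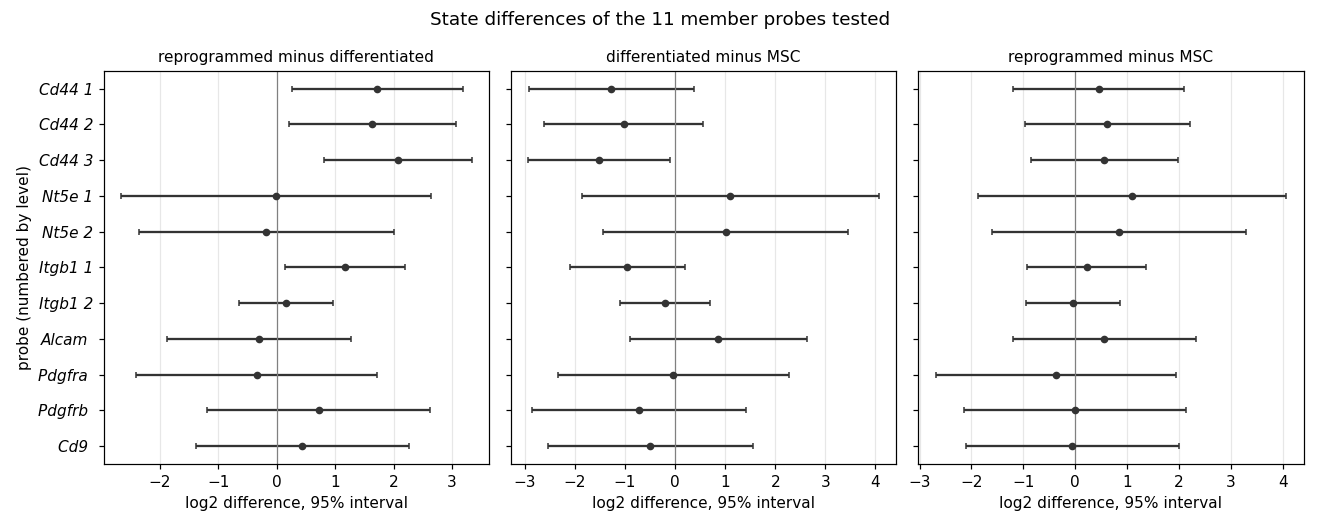
Log2 differences (offset of 16) of the 11 member probes tested, with 95% intervals from limma over 8 arrays, for the 3 contrasts between states; probes of a gene are numbered from the brightest. The 3 Cd44 probes and the first Itgb1 probe lie above 0 in reprogrammed minus differentiated, and no interval excludes 0 in reprogrammed minus MSC.

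The MSC arrays differed from each other in 4 of 15 member probes by a log2 of at least 1. On MSC p4 3 were higher (both of Nt5e and the brighter of Itgb1, by 1.06; 6.64% of all probes) and Pdgfra was lower (6.85%). Arrays titled d, which hold all differentiated cells, had 4317 to 5204 probes at 0, and arrays titled p, which hold all reprogrammed cells, 6815 to 7652. Title letter and state cannot be told apart except through the 2 MSC arrays. Over the brightest probes of 9 members, MSC d0 lay closest to differentiated osteocytes (root mean square log2 difference 0.33) and MSC p4 closest to reprogrammed chondrocytes (0.48). Over all probes the nearest arrays were others. MSC d0 lay closest to reprogrammed osteocytes and chondrocytes (both 0.58) and MSC p4 to reprogrammed adipocytes (0.35). The MSC arrays lay 1.25 apart over the 9 members and 0.77 over all probes. Differentiated adipocytes were 2.42 to 2.80 from every other array, against 1.17 to 1.32 over all 15568 probes. Mcam had the largest gap in each of these pairs, 4.45 to 5.64. It is among the 9 members only because it reached 6 on this array, and Alcam only because it did so on the 2 adipocyte arrays. These distances are therefore a description. A gap wider than that of all probes was not particular to adipocytes. Differentiated chondrocytes and osteocytes were 1.94 apart, beside 0.89 over all probes.

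Across the 8 arrays, Pdgfrb and Cd9 correlated at r = 0.91, Alcam and Mcam at 0.88 and Cd44 and Itgb1 at 0.84, while Cd44 and Mcam were at -0.92. The arrays share a normalization, and the differentiated adipocyte array is an extreme for each of these genes, so the values are a description. By the same measure, among 3316 tested probes with a range of at least 2, the genes closest to the brightest Cd44 probe were Sertad1 (r = 0.99), Sri and Dynll1 (both 0.98). Those closest to Pdgfrb were Tle6 and Capg (both 0.99) and Aebp1 (0.99), and to Cd9 Hspa1a (0.97), Slc44a1 and Rcan2 (both 0.96). The brighter Nt5e probe was closest to Cmtm4 (0.94), Slc1a4 (0.93) and Aldh1l2 (0.92), and Pdgfra to Tgfbr2 (0.96), Bst2 and Lrp4 (both 0.95). Itgb1 was closest to Ankrd1 (0.97), Slco2a1 (0.97) and Ccn1 (0.96), and Alcam to H4c11 (0.96), Ankrd40 (0.96) and Elovl4 (0.95).

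Genes that work with the markers were read from 9 further lists, each gene by its brightest tested probe. In reprogrammed against differentiated cells 1 of the 70 list genes tested passed (1.43%), beside 63 of all 8317 genes tested this way (0.757%). It was Tns1, a focal adhesion protein that links integrins to actin. It read 8.11, 7.67 and 8.15 on differentiated adipocytes, chondrocytes and osteocytes, 4.35, 3.26 and 4.81 on reprogrammed osteocytes, adipocytes and chondrocytes, and 4.04 and 4.93 on MSC d0 and p4. It fell by 2.96 (SE 0.29, limma adjusted p = 0.0102) in reprogrammed against differentiated cells, and was higher in differentiated than in MSC arrays by 2.78 (limma adjusted p = 0.0451). With the title letter as a block 0 probes of any gene passed. Letter and state can be told apart for Tns1 only through the MSC arrays, with 1 array a letter. Tns1 was the only one of 10 focal adhesion partners of Itgb1 that was lower. The other 9 had positive differences, 0 of them passing, and the list median was 0.59 against -0.04 over all genes tested. Fblim1 of that list stood at 1.48 (limma adjusted p = 0.163).

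None of the other 8 lists had a member past the test in any contrast. Among CD44 ligands, synthases and adaptors (7 tested, 5 positive, median 0.35), Msn, the moesin that ties CD44 to actin, differed by 1.76 (limma adjusted p = 0.115). The hyaluronidase Hyal1 differed by -2.07 (limma adjusted p = 0.119). It read 7.65, 7.39 and 7.29 on differentiated adipocytes, chondrocytes and osteocytes and was dim on all reprogrammed arrays, but read 7.25 on MSC d0 and 2.96 on MSC p4. Of 5 integrin alpha partners tested 2 were positive (median -0.47), with Itgav at 1.23 (limma adjusted p = 0.151) and Itga11, which read 12.13 on differentiated chondrocytes, at -1.16 (limma adjusted p = 0.723).

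Tetraspanins and Cd9 partners had a median of 0.06 over 8 genes, with Tspan4 at 1.02 and Cd81 at -0.69 (limma adjusted p = 0.302 and 0.23). PDGF ligands and signalling genes had a median of 0.28 over 7, with Plat, which activates PDGF-C, at 1.77 and Pik3r1 at -1.27 (limma adjusted p = 0.351 and 0.174). The endoglin and TGF-beta receptor list had 12 of 14 negative and a median of -0.21, with the ligands Tgfb2 and Tgfb3 at 1.53 and 1.02 (limma adjusted p = 0.202 and 0.406). CD73 and adenosine genes had a median of 0.05 over 4, with Alpl at -1.76 and the nucleoside transporter Slc29a1 at 0.68 (limma adjusted p = 0.359 and 0.684). Partners of Alcam and Mcam had 3 of 3 negative, with Vegfc at -1.54 (limma adjusted p = 0.0767) and Nrp1 at -0.36. Other mesenchymal surface markers had 5 of 13 positive and a median of -0.10. Cd248 (endosialin) of that list differed by 1.95 (limma adjusted p = 0.391) and read 10.51 and 7.38 on MSC d0 and p4, 5.35, 5.81 and 10.46 on differentiated adipocytes, chondrocytes and osteocytes, and 8.37, 9.79 and 10.03 on the reprogrammed cells of these lineages.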

How the data were processed

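Per the labels' protocols, RNA from Qiagen columns was amplified into biotin-labelled cRNA (Ambion MessageAmp). The values used are log2 values of 45281 probes as deposited by the authors. Their columns share a median of 3.90, and the highest value on any array is 15.05. The number of probes at 0 differs between arrays, as given above. The software behind the values is not given in the sources used here. A deposited table before normalization, with 16 value columns, was not used, because its column names match no sample. Symbols came from the platform annotation, updated through Entrez identifiers to RefSeq: 34885 probes had 1 symbol, 18 several and 10378 none. Promoters came from RefSeq.

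Deposited values x were turned into log2(2^x + 16), which understates differences of dim probes. Probes at 6 on at least 2 of 8 arrays (14082, 31.1%) were tested with limma 3.58.1 (lmFit, eBayes; R 4.3.3), 3 states as groups, two-sided, with Benjamini-Hochberg adjustment over all of them at 0.05. Every adjusted p is limma's. All probes were fitted, not 1 a gene, since members are all probes of a gene. Lineages stand as the replication of a state, and the labels do not name separate cultures or animals, so p-values speak of the variation among these arrays, which may be technical. The number of arrays limits the precision. Cell types with 1 array were compared by size, a log2 difference of at least 1. A dim side gives a bound, "at least N-fold", set against the higher of its value and 6.32. The fit was tested on simulated data. Members, lists and the level and offset were chosen with earlier results of these data known. Named genes are every member, list genes that passed and the 2 largest differences of each list in reprogrammed against differentiated cells, and the 3 genes closest in pattern to each member probe of range at least 2, printed for 1 probe a gene. Alternatives covered offset, filter, probe choice, arrays in the fit, title letter or lineage as a block, variance trend and leaving out each array.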

Additional observations from a re-analysis of the deposited data

Results flagged for a closer look

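Nt5e differed between lineages in reprogrammed against differentiated cells. In the chondrocyte lineage its brighter probe stood at -2.26, and in the osteocyte lineage at 1.90, which is at least 2.54-fold higher, since differentiated osteocytes were dim. There was 1 array on each side, so that the opposite directions rest on 1 array pair of each lineage. The difference between the lineages was not tested, since there is 1 pair each. The second probe had -2.18 in the chondrocyte lineage and was under 6 on both osteocyte arrays. In the brighter probe MSC p4 was at least 3.97-fold above MSC d0, which has the same label, in the direction of the title letters, which also separate differentiated from reprogrammed arrays; the part of that in the osteocyte value was not tested.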

How the results depend on the processing

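In each contrast between states, 0 of the member probes passed limma's adjusted test under every alternative run, planned or added. In the main setting 4, 1 and 0 of them had an unadjusted p under 0.05 in reprogrammed against differentiated, differentiated against MSC and reprogrammed against MSC. No value of a single probe gained a call; 196 of 215 alternative values in reprogrammed against differentiated cells, 189 of 204 in differentiated against MSC and 187 of 204 in reprogrammed against MSC kept their sign, Cd44 always among them. The brighter Itgb1 probe kept its sign but went from 1.17 to 0.11 in the first contrast with the title letter as a block. The other values, all of uncalled differences, turned sign, and the cause was not tested. In reprogrammed against differentiated cells, leaving out 1 array gave ranges of -0.89 to 0.39 (Pdgfra), -0.93 to 0.52 (Alcam), -1.16 to 0.88 and -1.22 to 1.23 (Nt5e), -0.51 to 1.16 (Cd9), -0.089 to 0.48 (second Itgb1 probe) and -0.37 to 1.35 (Pdgfrb). In differentiated against MSC they were -1.21 to 1.15 (Pdgfra), -0.036 to 2.0 and -0.14 to 2.34 (Nt5e), -1.22 to 0.45 (Cd9), -0.53 to 0.043 (second Itgb1 probe) and -1.35 to 0.37 (Pdgfrb). In reprogrammed against MSC they were -1.56 to 0.80 (Pdgfra), -0.31 to 0.75 and -0.27 to 0.18 (Itgb1), -0.31 to 0.38 (Cd9), -0.14 to 2.33 (Nt5e) and -0.43 to 0.42 (Pdgfrb). With the title letter as a block, Pdgfra stood at 2.02 and the second Itgb1 probe at -0.29 in the first contrast, that probe at 0.019 in the second, and Pdgfra, Itgb1, Nt5e and Pdgfrb at 0.80, -0.31, -0.14 and 0.42 in the third. Without both adipocyte arrays, Alcam, Cd9, Itgb1 and Pdgfrb stood at 0.19, -0.068, -0.063 and -0.15 in the first, Pdgfra, Cd9, Itgb1 and Pdgfrb at 0.45, 0.45, 0.043 and 0.37 in the second, and Pdgfra, Cd9 and Pdgfrb at 0.36, 0.38 and 0.22 in the third. Nt5e stood at 0.10 in the first with an offset of 1 or with none. With lineage as a replicate block over 6 arrays the third Cd44 probe kept 2.07 (limma adjusted p = 0.135), and 17 probes in all were called in place of 116. Deviations from the state mean correlated between arrays of the same lineage at 0.16 (adipocyte), 0.09 (chondrocyte) and 0.22 (osteocyte). Between arrays of different lineages they correlated at -0.25 to 0.03, below each of these. Deviations within a state sum to 0, so positive values within lineages push those between lineages down, and this contrast is in part built in. The main fit left the lineages unpaired, and the count of called probes depends on that choice. Over all probes the count of 116 ranged from 1 to 373 when 1 array was left out, and was 0 with the title letter as a block. Eng, Thy1 and Mcam are limited by signal: they reached 6 on at most 1 array, and their other values are bounds.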
